A study of Homo sapiens with 8 samples.

Results

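A set of 10 immediate early response genes, chosen by symbol, was followed in the RNA-seq of HuH7 cells, a human hepatocellular carcinoma line of epithelial-like, tumorigenic cells labelled as wildtype. They were FOS, FOSL1, JUN, JUNB, EGR1, NR4A1, IER2, IER3, MYC and KLF6, 10 of the 15745 named genes in the count table. All libraries came from cells kept for 6 h at 1% oxygen without glucose and then returned to normoxia. During 6 h of reoxygenation the cells of 4 libraries received DMSO (I/R+DMSO). Those of the other 4 received 20 µM ginsenoside Rk2, a plant saponin (I/R+Rk2). Hypoxia and glucose withdrawal were thus common to both groups. The comparison asked how Rk2 altered transcript levels after this in vitro form of ischemia and reperfusion. No library of cells without hypoxia and no earlier time was analysed here, so the levels are those at the end of reoxygenation in a single tumour line. The labels do not state whether the 4 libraries of a group came from separate cultures, and p-values therefore measure only the spread between these libraries.

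Immediate early genes are transcribed within minutes of a growth factor, stress or cytokine signal without new protein synthesis, mostly through ERK, JNK and p38 kinases acting on factors already bound to their promoters. Their transcripts are short-lived, because AU-rich elements recruit decay factors, and many of their proteins are transcription factors or feedback regulators. In liver, FOS, JUN, EGR1 and MYC are known for their rapid induction after partial hepatectomy and after ischemia and reperfusion.

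Of the 10 genes, NR4A1, KLF6 and JUN rose in I/R+Rk2, IER3 fell, and 6 (JUNB, IER2, FOS, EGR1, FOSL1 and MYC) did not pass the test. NR4A1 had the largest change, 1.70-fold, against 1.21-fold for KLF6 and 1.18-fold for JUN, while IER3 was at 0.870 of its I/R+DMSO level. All 10 passed the filter of at least 10 counts in at least 4 libraries and were tested with edgeR's quasi-likelihood test, with Benjamini-Hochberg adjustment over 12910 genes. Among all genes tested, 11.0% rose and 7.24% fell at an adjusted p below 0.05, against 3 and 1 of these 10. The balance of calls over all genes differed between fits. It was 1417 higher and 935 lower here, 1246 and 1306 with upper-quartile normalization, and 1642 and 683 with library size only. With a gene length correction it was 1028 and 1245. In limma on log2(FPKM + 1), which also changed the measure, the test and the genes tested (11852), it was 812 and 311. The ranges of the 2 groups were separate for 5 of the 10 (JUN, NR4A1 and KLF6 higher, JUNB and IER3 lower), and for 28.3% of all genes tested. The median log2 fold change (log2FC, I/R+Rk2 over I/R+DMSO) was -0.00103 for the 10 and -0.00205 for all genes tested, with 5 members above 0 and 5 below. Because the RNA is from whole cultures, fewer cells expressing a gene and less RNA per cell cannot be told apart.

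**Figure D1:**
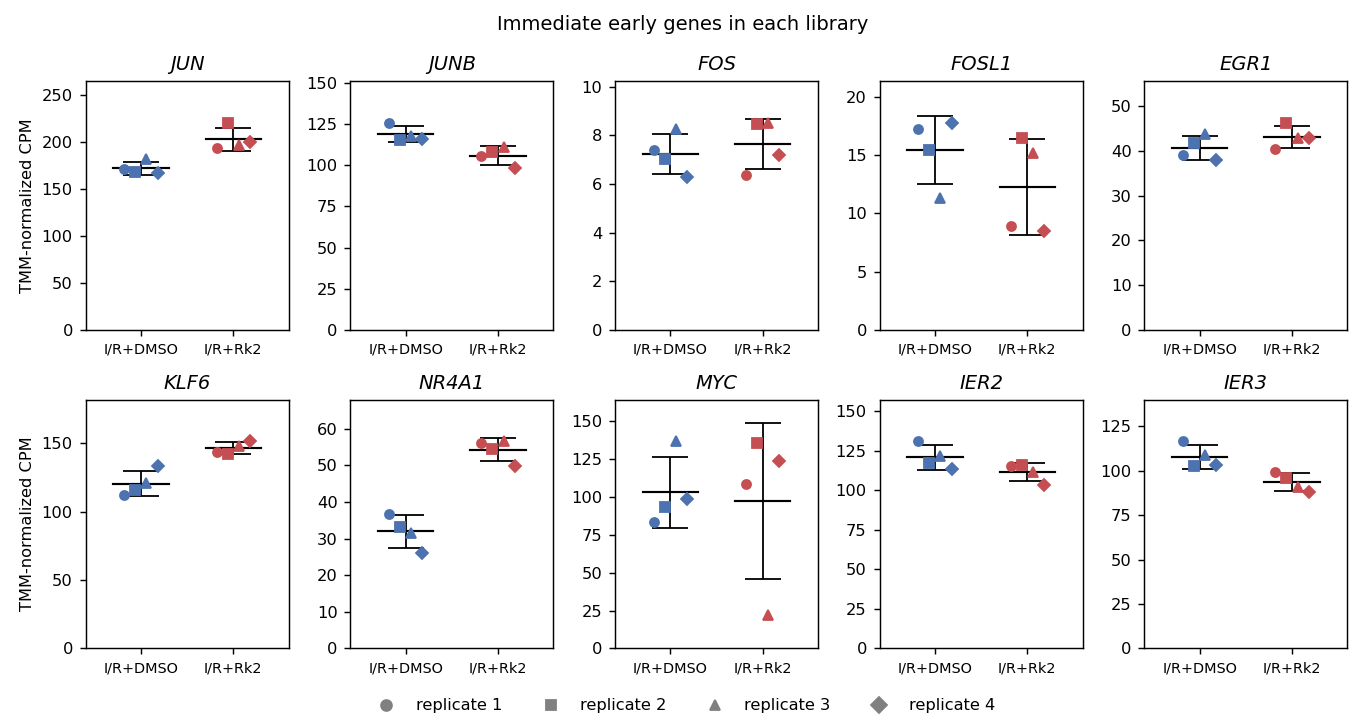
TMM-normalized CPM (counts scaled to library size, vertical axis, starting at 0 in each panel) of the 10 immediate early genes in the 4 I/R+DMSO and 4 I/R+Rk2 libraries. Each symbol is a library, long lines are means and error bars are SD. NR4A1, KLF6 and JUN were higher in every I/R+Rk2 library, JUNB and IER3 were lower in every one, and MYC stood far below the rest in I/R+Rk2 replicate 3 alone.

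Library totals were 18428485 to 21447045 counts in the I/R+DMSO libraries and 16374082 to 30310479 in I/R+Rk2, and the members held from 134 counts (FOS) to 5912 counts (JUN) in a library. All 10 hepatocyte markers examined were detected in every library, with a summed level of 11691 to 12927 CPM. The highest CPM among them, not scaled for length, was that of AFP, at a mean of 5937 in the I/R+DMSO libraries and 5940 in I/R+Rk2. Of these markers, APOB, the structural protein of very-low-density lipoprotein, rose from 1057 ± 180 to 1617 ± 135 CPM (SD, n = 4 each; log2 fold change 0.61, adjusted p = 0.0124, edgeR). FGB, the fibrinogen beta chain, fell from 351 ± 14.7 to 290 ± 31.9 CPM (SD, n = 4 each; log2 fold change -0.27, adjusted p = 0.0462, edgeR), and the other 8 did not pass. With the length correction APOB was at 0.29, and FGB lost its call there (adjusted p = 0.0687, edgeR) and in limma on log2(FPKM + 1) (adjusted p = 0.134). Of 12 markers of other liver cells, PTPRC, CD163, VWF and LRAT were not in the count table, and STAB2, ACTA2 and KRT7 had at most 3 counts in any library. SOX9 had the highest CPM, 196 in I/R+DMSO and 222 in I/R+Rk2 (adjusted p = 0.0713, edgeR). The summed level of the markers of other liver cells was 229 to 279 CPM in the I/R+DMSO libraries and 272 to 291 CPM in I/R+Rk2. Mitochondrially encoded genes took 10.6% to 11.1% of counts in the I/R+DMSO libraries and 9.02% to 9.62% in I/R+Rk2, a difference that moved with the groups and whose part in the results was not tested.

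Regulatory sequence upstream of these genes is shown for 4 members, 2 whose transcripts rose (JUN and KLF6) and 2 whose change did not pass the test (EGR1 and JUNB). The sequences were taken from the RefSeq promoter windows on GRCh38.p14, which run from 250 bases before to 50 bases after a gene's start and matched 7 of the 9 members looked up (MYC was not). Positions are counted from that start. The windows were searched on both strands for TGACGTCA (the CRE), TGACATCA (a CRE variant known from the JUN promoter, bound by JUN and ATF2), TGACTCA (the AP-1 site), TGATGNAA (a composite ATF and C/EBP site), AAAGGTCA (the NBRE, the monomer site of NR4A proteins), CACGTG (the E-box, bound by MYC with MAX), TATAAA (the core element named TATA box) and the CArG box of SRF by its name. Capitals mark the matches, and no 2 of these motifs overlapped in the sequences below.
JUN, 30 bases on the minus strand at chr1:58784096-58784125: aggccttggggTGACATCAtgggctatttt
KLF6, 178 bases on the minus strand at chr10:3785282-3785459: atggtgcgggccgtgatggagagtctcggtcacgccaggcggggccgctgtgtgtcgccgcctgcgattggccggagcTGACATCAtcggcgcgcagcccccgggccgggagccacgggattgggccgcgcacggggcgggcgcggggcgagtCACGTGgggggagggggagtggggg
EGR1, 250 bases on the plus strand at chr5:138465229-138465478: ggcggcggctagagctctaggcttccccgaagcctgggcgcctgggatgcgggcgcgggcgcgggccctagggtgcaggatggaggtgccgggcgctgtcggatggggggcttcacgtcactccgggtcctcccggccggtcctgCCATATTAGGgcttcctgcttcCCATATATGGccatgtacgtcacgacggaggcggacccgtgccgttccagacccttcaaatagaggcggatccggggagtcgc
JUNB, 250 bases on the plus strand at chr19:12791236-12791485: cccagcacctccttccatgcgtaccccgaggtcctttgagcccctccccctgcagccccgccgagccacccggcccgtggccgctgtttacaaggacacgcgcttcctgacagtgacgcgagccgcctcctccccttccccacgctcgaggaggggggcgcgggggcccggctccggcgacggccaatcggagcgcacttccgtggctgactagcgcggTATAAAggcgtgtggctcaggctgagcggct

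The CRE variant stood at positions -67 to -60 of JUN and -172 to -165 of KLF6, and 2.61% of all 35116 promoter windows held it. KLF6 also held an E-box at -97 to -92, a motif present in 7.26% of windows. EGR1 held 2 CArG boxes, at -105 to -96 and at -83 to -74, against 1.29% of windows with any. A TATA box lay at -31 to -26 of JUNB and at -33 to -28 of FOS. Of all windows, 11.5% held TATAAA at any position on either strand. Neither of the 2 NR4A1 starts among these windows nor that of IER2 had a match to any of the 8 motifs. Any other start of NR4A1 was not searched. The full CRE, the AP-1 site, the composite ATF and C/EBP site and the NBRE, held by 1.85%, 4.95%, 3.62% and 1.22% of windows, had no match in the windows of these 7 members. In the GENCODE v29 annotation JUN begins 280 bases further upstream than in RefSeq, so its site lies within the first exon of that annotation. These matches describe letters in the windows and carry no evidence of binding in these cells.

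JUN, JUNB, FOS and FOSL1 encode subunits of AP-1, a dimer in which a JUN protein pairs with a FOS, JUN or ATF protein. JUN, the main JNK substrate of the complex, was at 171, 167, 181 and 167 CPM in I/R+DMSO replicates 1 to 4 and at 194, 220, 197 and 199 CPM in I/R+Rk2. Every Rk2 library exceeded every DMSO library. Its mean was 172 ± 6.65 CPM against 203 ± 12.1 CPM (mean ± SD, n = 4 each), with a log2FC of 0.24 (SE 0.0514, adjusted p = 0.0171, edgeR). JUN is a single-exon gene at chr1:58780788-58784327 on the minus strand of GRCh38, and no exon of another gene overlaps it in GENCODE v29. When counts were corrected for a dependence on gene length, itself implied by the ratio of counts to FPKM, its log2FC was 0.14 and the call was lost (adjusted p = 0.123, edgeR).

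JUNB, which competes with JUN for partners and is a weaker activator of many AP-1 sites, had 126, 116, 118 and 116 CPM in I/R+DMSO. It had 106, 108, 111 and 98.3 CPM in I/R+Rk2, each below the lowest DMSO library. Its log2FC of -0.17 (SE 0.0508) just missed the threshold (adjusted p = 0.0550, edgeR), whereas DESeq2 placed it below the threshold at 0.0179. JUNB lies at chr19:12791496-12793315 on the plus strand, where its exon overlaps that of HOOK2 on the opposite strand. The strand setting of the libraries is not given in the sources used here, so reads of JUNB and HOOK2 could have been counted together. With JUN above and JUNB below, the ratio of JUN to JUNB in FPKM, which scales for length and library size, was 0.699, 0.744, 0.793 and 0.740 in I/R+DMSO. The same ratio was 0.942, 1.05, 0.910 and 1.04 in I/R+Rk2, above every I/R+DMSO library. JUNB did not pass in FPKM either (adjusted p = 0.164, limma on log2(FPKM + 1)), so the ratio does not show that both genes moved. This ratio was computed after the values of both genes were seen and was not tested.

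FOS, the prototype immediate early gene and an obligate partner of JUN proteins, was the least abundant member. It was at 7.38, 7.02, 8.27 and 6.29 CPM in the I/R+DMSO libraries and at 6.39, 8.48, 8.53 and 7.18 CPM in I/R+Rk2, with wide overlap between the groups. Its log2FC was 0.08 with a 95% interval from -0.21 to 0.37 (adjusted p = 0.713, edgeR), which leaves room for a change in either direction. FOS lies at chr14:75278774-75282230 on the plus strand. FOSL1, encoding the FOS-related antigen FRA-1, was at 17.2, 15.4, 11.3 and 17.8 CPM in the I/R+DMSO libraries and at 8.88, 16.4, 15.2 and 8.50 CPM in I/R+Rk2. It thus split within both groups, with I/R+DMSO replicate 3 and I/R+Rk2 replicates 1 and 4 below all other libraries. Its log2FC was -0.34 with a 95% interval from -0.93 to 0.25 (adjusted p = 0.388, edgeR). The same 3 libraries had the highest ratio of counts to FPKM for FOSL1, an implied transcript length of 1693 to 1750 bases against 1531 to 1671 in the other 5, and its part in the split was not tested. FOSL1 lies at chr11:65892049-65900573 on the minus strand.

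EGR1, KLF6 and NR4A1 encode zinc finger and nuclear receptor factors. EGR1, a GC-box binding factor whose promoter holds the pair of CArG boxes shown above, was at 39.1, 41.6, 43.9 and 38 CPM in I/R+DMSO. It was at 40.5, 46.3, 42.8 and 42.9 CPM in I/R+Rk2, and the groups overlapped. Its log2FC was 0.08 with a 95% interval from -0.06 to 0.23 (adjusted p = 0.399, edgeR). EGR1 lies at chr5:138465490-138469315 on the plus strand and shares no exon with another gene.

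KLF6, a Krüppel-like factor that is abundant in liver, was at 112, 116, 121 and 133 CPM in the I/R+DMSO libraries and at 144, 142, 148 and 152 CPM in I/R+Rk2. All 4 Rk2 libraries were above the highest DMSO library, replicate 4. Its mean rose from 120 ± 9.19 to 146 ± 4.21 CPM (mean ± SD, n = 4 each), with a log2FC of 0.28 (SE 0.0576, adjusted p = 0.0142, edgeR). After the length correction it was 0.18 (adjusted p = 0.0236, edgeR). KLF6 lies at chr10:3775996-3785281 on the minus strand and, with an implied length of 4567 bases, was the longest member.

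NR4A1, an orphan nuclear receptor also called NUR77 that acts in apoptosis and hepatic glucose metabolism, was at 36.8, 33.3, 31.6 and 26.1 CPM in I/R+DMSO. In I/R+Rk2 it was at 56.2, 54.5, 56.6 and 49.8 CPM, and the lowest Rk2 library lay well above the highest DMSO library. Its mean rose from 32.0 ± 4.45 to 54.3 ± 3.13 CPM (mean ± SD, n = 4 each), with a log2FC of 0.76 (SE 0.102, 95% interval 0.53 to 1.00, adjusted p = 0.00278, edgeR). In FPKM it rose from 13.1 ± 1.93 to 21.6 ± 1.43 (SD, n = 4 each). NR4A1 lies at chr12:52022832-52059507 on the plus strand, and its exons overlap those of AC025259.3 on the opposite strand. Both other NR4A receptors rose as well. NR4A2 went from 6.92 ± 0.666 to 9.73 ± 1.45 CPM (SD, n = 4 each; log2FC 0.49, adjusted p = 0.0297, edgeR). NR4A3 went from 0.995 ± 0.197 to 1.80 ± 0.328 CPM (SD, n = 4 each; log2FC 0.86, adjusted p = 0.0248, edgeR), on 15 to 67 counts a library, and lost its call with the length correction (adjusted p = 0.0720, edgeR). These 2 genes were named after their values were seen.

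IER2 and IER3 carry the name of the class but belong to separate families. IER3, a stress-inducible regulator of cell survival also known as IEX-1, was at 117, 103, 109 and 103 CPM in the I/R+DMSO libraries and at 99.6, 96.1, 91.1 and 88.3 CPM in I/R+Rk2. The groups did not overlap, although the nearest libraries were about 3 CPM apart. Its mean fell from 108 ± 6.61 to 93.8 ± 5.04 CPM (mean ± SD, n = 4 each), with a log2FC of -0.20 (SE 0.0587, adjusted p = 0.0478, edgeR). This call stood close to the threshold and was kept in 5 of 20 alternative settings, with adjusted p-values from 0.0166 to 0.141, and it was lost when any library except I/R+Rk2 replicate 1 was left out (adjusted p = 0.0530 to 0.114, edgeR). After the length correction the log2FC was -0.11 (adjusted p = 0.0885, edgeR). IER3 lies at chr6:30743199-30744554 on the minus strand, its exons overlap the antisense gene IER3-AS1, and its implied length of 1489 bases was the shortest among members.

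IER2, a nuclear protein induced by serum and growth factors, was at 131, 117, 122 and 113 CPM in the I/R+DMSO libraries and at 115, 116, 111 and 103 CPM in I/R+Rk2. The 2 ranges overlapped. Its log2FC was -0.12 with a 95% interval from -0.25 to 0.02 (adjusted p = 0.203, edgeR). In FPKM no decrease was seen, with a log2FC of 0.004 (adjusted p = 0.982, limma on log2(FPKM + 1)). In I/R+Rk2 replicate 3 IER2 had 40.9 FPKM against 29.9 to 36.3 in the other 7 libraries and an implied length of 2750 bases against 3488 to 3532. IER2 lies at chr19:13150415-13154908 on the plus strand, and its exons overlap those of AC011446.2 on the opposite strand.

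MYC, the driver of ribosome production and cell growth, was the most variable member. It was at 83.2, 93.3, 137 and 98.7 CPM in the I/R+DMSO libraries and at 108, 136, 22.0 and 124 CPM in I/R+Rk2. A single library, I/R+Rk2 replicate 3, held 363 counts where the other 7 held 1566 to 3309. With it the log2FC was -0.08 with a 95% interval from -1.18 to 1.02 (adjusted p = 0.930, edgeR). Without it the value was 0.25 (adjusted p = 0.373, edgeR), and without I/R+DMSO replicate 3, which had the highest MYC level, it was 0.09 (adjusted p = 0.927, edgeR), so the sign depended on single libraries in either group. The implied length of MYC in I/R+Rk2 replicate 3 was 1081 bases, against 1697 to 1843 in the other libraries. MYC was among 13 genes in I/R+Rk2 replicate 3 that lay more than 3 times below their next lowest library, of 9210 genes with a mean of at least 10 CPM, and the other libraries held 4 to 15 such genes each. The 14 classical MYC targets tested averaged 8.50 on the log2 CPM scale in I/R+Rk2 replicate 3, against 8.44 to 8.49 in the other I/R+Rk2 libraries and 8.57 to 8.65 in the I/R+DMSO libraries.

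Levels of different genes were compared only per length, as FPKM. In I/R+DMSO the mean FPKM fell in the order IER3 (71.2), MYC (58.2), JUNB (53.9), JUN (40.1), IER2 (34.0), KLF6 (25.9), NR4A1 (13.1), EGR1 (10.7), FOSL1 (9.43) and FOS (3.41). The ranges of neighbouring genes overlapped between IER3 and MYC, MYC and JUNB, NR4A1 and EGR1, and EGR1 and FOSL1, so those pairs could not be ordered beyond the spread of the libraries. The order was the same in I/R+Rk2, from 63.6 FPKM for IER3 to 3.81 FPKM for FOS, but its neighbours stood differently. JUN, at 48.4 FPKM, overlapped JUNB at 49.2 FPKM, KLF6, at 32.7 FPKM, overlapped IER2 at 34.3 FPKM, and NR4A1, at 21.6 FPKM, no longer overlapped EGR1 at 11.6 FPKM.

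**Figure D2:**
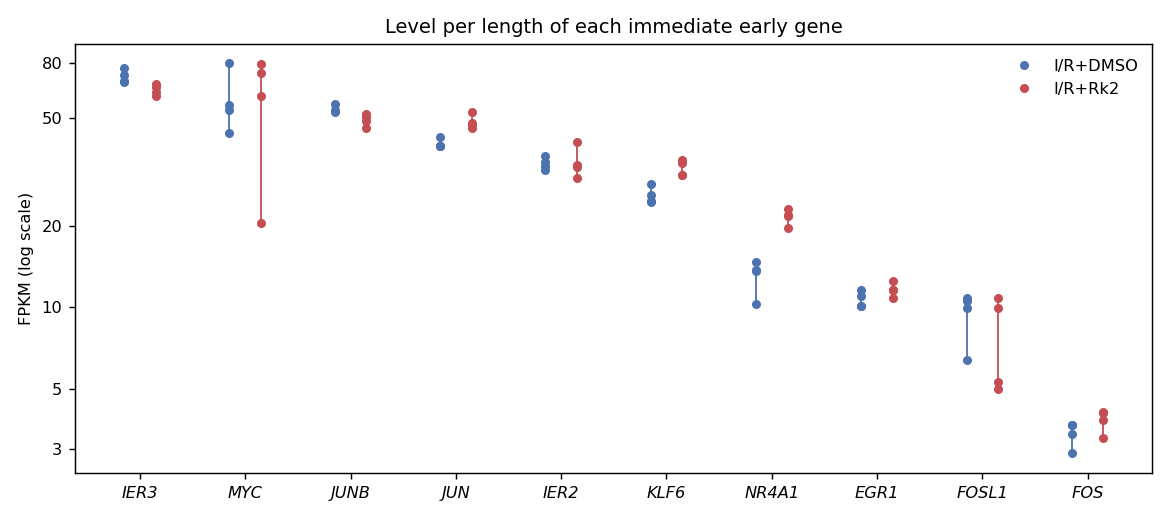
FPKM of the 10 immediate early genes on a log scale, ordered by their mean in I/R+DMSO. Each point is a library and each line spans the lowest to the highest library of a group. NR4A1 spanned 10.3 to 14.7 FPKM without Rk2 and 19.7 to 23.1 FPKM with it, while MYC spanned 20.5 to 79.2 FPKM in I/R+Rk2.

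Across all genes tested, the log2FC rose with the implied length of the transcript (Spearman rho 0.388 over genes, a description, since genes are not replicates). The members that rose included the long transcripts of KLF6 (4567 bases) and JUN (4226 bases), and IER3 (1489 bases) was short. NR4A1, at 2483 bases, was close to the median of 2916 bases for all genes tested. EGR1 (3748 bases) and IER2 (3503 bases) were also long, and FOSL1 (1611 bases) and MYC (1730 bases) also short, but none of them passed. The length correction left NR4A1 at a log2FC of 0.77 (adjusted p = 0.00195, edgeR). With that correction 2 members, NR4A1 and KLF6, rose and 0 fell in edgeR, where 3 (IER3, JUNB and IER2) were lower at an unadjusted p below 0.05. Over all genes tested that fit called 7.96% higher and 9.64% lower. DESeq2 on uncorrected counts called 2 members lower, JUNB and IER3, in a fit that called 10.1% of all genes lower and 13.1% higher.

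**Figure D3:**
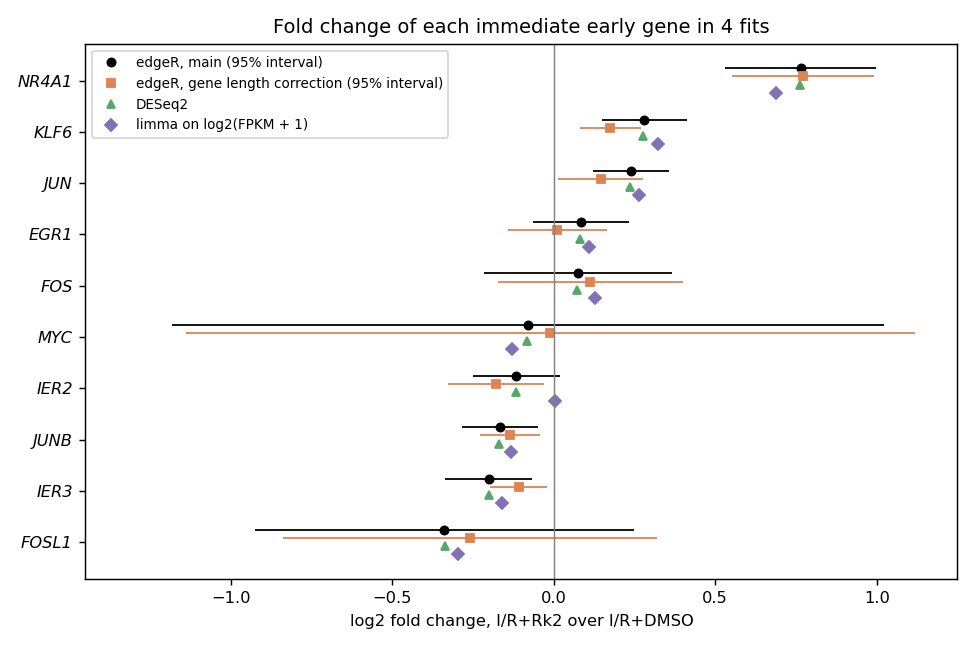
Log2FC of each immediate early gene, I/R+Rk2 over I/R+DMSO, in the edgeR fit, in edgeR with a gene length correction, in DESeq2 and in limma on log2(FPKM + 1). Horizontal lines are 95% intervals of the edgeR fits. NR4A1 lay between 0.69 and 0.77 in all 4, JUN moved from 0.24 to 0.14 with the length correction, and IER2 moved from -0.12 to 0.004 in FPKM.

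The members were then set beside 132 other genes of the same pathways, in 7 lists of partners, related early genes, regulators and targets, of which 125 were tested. Of these, 24 rose and 12 fell, with a median log2FC of 0.08, beside 11.0% and 7.24% of all genes tested and a median of -0.00205. Without I/R+Rk2 replicate 3 the counts were 15 and 7, without I/R+Rk2 replicate 4 they were 14 and 6, and the number that fell was 6 without I/R+DMSO replicate 2 and 7 when I/R+Rk2 replicate 1 was left out. Among AP-1 and ATF partners 5 of 13 rose and 0 fell in edgeR, also 0 at an unadjusted p below 0.05 and in DESeq2, with a median of 0.30. ATF3, a stress-induced AP-1 and CRE binding factor, showed the largest rise, from 34.5 ± 13.9 to 87.9 ± 6.28 CPM (SD, n = 4 each; log2FC 1.35, adjusted p = 0.0247, edgeR). MAFG, a small MAF protein that dimerizes with NRF2 and with FOS, rose from 61.2 ± 3.19 to 86.1 ± 1.96 CPM (log2FC 0.49, adjusted p = 0.000814, edgeR), though its exons overlap those of SIRT7 on the same strand. JUND, the constitutive member of the JUN family, rose from 187 ± 19.3 to 235 ± 4.95 CPM (log2FC 0.33, adjusted p = 0.0165, edgeR). ATF2 and MAFK were the other 2 that rose, and both lost the call with the length correction (adjusted p = 0.0620 and 0.169, edgeR). Within the JUN family, JUN and JUND therefore rose while JUNB had a negative log2FC that missed the threshold.

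Of 24 other early genes, 21 were tested, 7 rose and 3 fell, beside 11.0% and 7.24% of all genes tested, with a median log2FC of 0.03. With the length correction 6 rose and 5 fell, beside 7.96% and 9.64% of all genes, and the median was -0.02. BTG2, an antiproliferative gene induced by p53, rose from 25.8 ± 2.27 to 43.7 ± 0.683 CPM (log2FC 0.76, adjusted p = 0.000556, edgeR). TIPARP, an ADP-ribosyltransferase induced through the aryl hydrocarbon receptor, and PPP1R15A, which directs dephosphorylation of eIF2alpha, rose by log2FC values of 0.39 and 0.40 (adjusted p = 0.00661 and 0.00700, edgeR). KLF4, CSRNP1, NR4A2 and NR4A3 were the remaining 4. The genes that fell were CTGF (CCN2) and CYR61 (CCN1), secreted matricellular proteins and well-known YAP and SRF targets, and SRF, the factor that binds the CArG box. CTGF fell from 520 ± 24.3 to 354 ± 16.8 CPM (log2FC -0.55, adjusted p = 0.000558, edgeR). The log2FC values were -0.26 for CYR61 (adjusted p = 0.0300, edgeR) and -0.16 for SRF (adjusted p = 0.0282, edgeR; -0.28 with the length correction), neither of which passed in limma on log2(FPKM + 1), nor did CSRNP1.

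Feedback inhibitors of ERK, JNK and p38 signalling gave 3 that rose and 1 that fell of 20 tested in edgeR, shares near those of all genes tested (11.0% and 7.24%). In DESeq2 6 rose and 1 fell, beside 13.1% and 10.1% of all genes in that fit. At an unadjusted p below 0.05 in edgeR, 9 were higher and 1 lower, so the count that rose depended on the fit. The median was 0.17, and 0.07 after the length correction. DUSP5, a nuclear ERK phosphatase, rose from 147 ± 7.31 to 185 ± 5.91 CPM (log2FC 0.33, adjusted p = 0.00353, edgeR). DUSP10 and DUSP8, phosphatases of JNK and p38, rose by log2FC values of 0.52 and 0.44 (adjusted p = 0.00490 and 0.00827, edgeR), and DUSP8 lost its call with the length correction (adjusted p = 0.0569, edgeR). DUSP6, the cytoplasmic ERK phosphatase whose transcript is widely used as a readout of ERK activity, moved the other way. It fell from 210 ± 2.26 to 161 ± 7.29 CPM (SD, n = 4 each; log2FC -0.38, adjusted p = 0.00108, edgeR).

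Upstream kinases and promoter-bound factors gave 4 that rose and 1 that fell of 27 tested, shares near those of all genes tested (11.0% and 7.24%), with a median of 0.08. ELK4, a ternary complex factor that joins SRF at CArG boxes, RPS6KA3, an ERK-activated ribosomal S6 kinase, and BRAF, a kinase at the head of the ERK cascade, had log2FC values of 0.42, 0.36 and 0.39 (adjusted p = 0.00472, 0.00806 and 0.0241, edgeR). With the length correction these were 0.21, 0.20 and 0.25, and all 3 still passed. MAPK8, which encodes the kinase JNK1, was the other that rose, and it lost the call with the length correction (adjusted p = 0.117, edgeR). MKL1 (MRTFA), an actin-regulated SRF coactivator, fell with a log2FC of -0.18 (adjusted p = 0.0354, edgeR), but had 0.09 in limma on log2(FPKM + 1) (adjusted p = 0.729). RPS6KA3, BRAF and MAPK8 also did not pass in FPKM.

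MYC itself gave no call. Its partners and antagonists gave 3 that rose and 1 that fell of 14, beside 11.0% and 7.24% of all genes tested, with a median of 0.21 that was 0.13 after the length correction. MNT and MXD1, which pair with MAX and repress MYC targets, had log2FC values of 0.35 and 1.06 (adjusted p = 0.00642 and 0.0463, edgeR), and MXD1 rested on 56 to 180 counts a library and shares exon sequence with SNRNP27 on the same strand. MYCBP2, a large ubiquitin ligase that binds MYC, had 0.60 (adjusted p = 0.0307, edgeR). MYCN, the MYC paralog, fell from 8.36 ± 1.15 to 5.03 ± 0.456 CPM (SD, n = 4 each; log2FC -0.73, adjusted p = 0.00645, edgeR). In FPKM the rises of MNT and MXD1 did not pass.

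Classical MYC targets gave 5 that fell of 14 tested, beside 7.24% of all genes tested (9.64% with the length correction), with a median of -0.21. None rose in edgeR, and the number higher was also 0 at an unadjusted p below 0.05 and in DESeq2. ODC1, the rate-limiting enzyme of polyamine synthesis, fell from 606 ± 22.6 to 479 ± 13.2 CPM (log2FC -0.34, adjusted p = 0.00164, edgeR). NOP56, a core protein of box C/D small nucleolar ribonucleoproteins, fell from 721 ± 43.3 to 549 ± 14.3 CPM (log2FC -0.39, adjusted p = 0.00203, edgeR), and its gene hosts small nucleolar RNAs on the same strand. NCL, encoding nucleolin, had a log2FC of -0.20 (adjusted p = 0.0166, edgeR), and EIF4A1 and BOP1 were the other 2 that fell. Under the length correction EIF4A1 lost its call (adjusted p = 0.110, edgeR), EIF4E fell (adjusted p = 0.0219, edgeR) and CDK4 rose (log2FC 0.12, adjusted p = 0.0496, edgeR), with a list median of -0.13. In limma on log2(FPKM + 1), ODC1 and NOP56 passed, and NCL, EIF4A1 and BOP1 did not (adjusted p = 0.119, 0.454 and 0.0747).

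Decay and stability factors of AU-rich transcripts gave 2 that rose and 1 that fell of 16, shares near those of all genes tested (11.0% and 7.24%), with a median of -0.03. XRN1, the main cytoplasmic 5′ exonuclease, and CNOT1, the scaffold of the CCR4-NOT deadenylase, had log2FC values of 0.64 and 0.30 (adjusted p = 0.0477 and 0.0495, edgeR). Both lost the call with the length correction (adjusted p = 0.130 and 0.119, edgeR). ELAVL1, which encodes the stabilizing protein HuR, had a log2FC of -0.12 (adjusted p = 0.0331, edgeR), which was -0.30 with the length correction and did not pass in limma on log2(FPKM + 1) (adjusted p = 0.286).

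**Figure D4:**
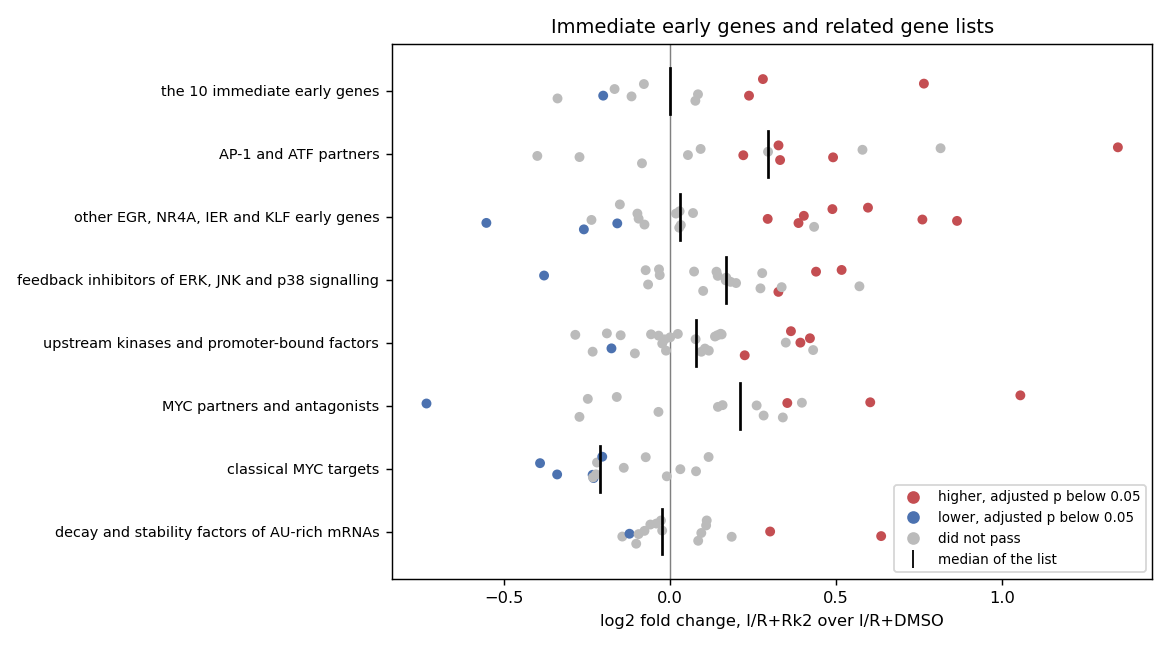
Log2FC, I/R+Rk2 over I/R+DMSO, of every tested gene of the immediate early group and of 7 related lists. Each point is a gene, colours mark genes that passed an adjusted p below 0.05 and vertical bars are list medians. Medians ran from -0.21 for classical MYC targets to 0.30 for AP-1 and ATF partners, with the 10 immediate early genes at -0.00103.

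Over the 8 libraries, the genes of at least 1 CPM whose log2 CPM followed NR4A1 most closely were HSPA5, the endoplasmic reticulum chaperone BiP (Pearson r = 0.994), GDF15, a secreted stress cytokine (r = 0.993), and SERP1, a stress-associated endoplasmic reticulum protein (r = 0.991), of 12210 candidates. All 3 passed in the edgeR test as higher after Rk2, with log2FC values of 0.44, 0.70 and 0.40. For IER3 they were COA3, a cytochrome c oxidase assembly factor (r = 0.989), ATP5G3, a subunit of ATP synthase (r = 0.989), and RPL18, a ribosomal protein (r = 0.988), with log2FC values of -0.26, -0.27 and -0.26, of which ATP5G3 passed (adjusted p = 0.0303, edgeR) and COA3 and RPL18 did not (adjusted p = 0.0505 and 0.0676, edgeR). These correlations describe 8 libraries of 2 groups and include the difference between the groups.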

How the data were processed

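HuH7 libraries were made with an MGIEasy kit from 250 ng of total RNA. The authors deposited raw counts per gene for 15767 rows and FPKM, scaled for gene length and library size. The submitters' processing notes name HISAT2 2.2.1, StringTie 1.3.3, FastQC 0.11.5 and hg38. The annotation, read counter and strand setting were not given in the sources used here. Among count rows, 22 symbols had been turned into dates (0.111% of counts) and were left out. Mouse libraries were not analysed here.

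Counts were tested with edgeR 4.0.16 (robust quasi-likelihood, TMM, condition only, genes reaching 10 counts in 4 or more libraries) in R 4.3.3, with Benjamini-Hochberg adjustment and a threshold of 0.05. Alternatives used DESeq2 1.42.0, limma 3.58.1 on log2(FPKM + 1), and loess length correction (span 0.5) on a length implied by counts and FPKM. In simulated data with 200 genes changed 2-fold and the same dispersion for every gene, edgeR recovered 93.5% with 7 false calls. No member changed as much as 2-fold (NR4A1, the largest, 1.70-fold). That rate therefore does not tell how often changes of the members' size would be found. Chi-square per degree of freedom between replicates was 16.1 to 29.8, so no library was a copy. Totals ranged from 16374082 to 30310479 counts.

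The members and lists were chosen with earlier results of these data known. Named genes were all members and, of each list, the called genes with the 3 smallest p-values in each direction. For genes most like a member, the called member with the largest change in each direction was used. Any other gene was named after its values were seen. Positions and exon overlaps are from GENCODE v29. Exons of BRAF, CNOT1, CTGF, DUSP6, ELAVL1, ELK4, MAFG, MNT, MYCBP2, MYCN and TIPARP also overlap exons on the opposite strand. With the strand setting not given, their counts could include reads of the overlapping genes.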

Additional observations from a re-analysis of the deposited data

How the results depend on the processing

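Over 20 alternative settings, the fold threshold aside, NR4A1 and KLF6 rose in all 20 and JUN in 17, IER3 fell in 5, JUNB in 3, and FOS, FOSL1, EGR1, IER2 and MYC passed in none. The number of members that fell, 1 in the edgeR fit, was 2 with DESeq2, upper-quartile normalization or at least 50 counts in every library. It was 0 with library size only, no count filter, limma on log2(FPKM + 1) or log2(FPKM + 0.1), limma without a filter, voom with sample weights, the length correction with or without the replicate block, and a fold change above 1.5. Members that rose numbered 3, against 2 with the replicate block, the length correction or both, and 1 with a fold change above 1.5. Of the other pathway genes 12 fell, against 6, 6 and 5 in the 3 FPKM fits and 1 above 1.5-fold. A further 24 rose, against 14 with limma without a filter, 13 with the length correction and replicate block, and 7 above 1.5-fold.

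Leaving out 1 library at a time gave 0 to 1 members that fell, 3 that rose throughout, 6 to 12 other pathway genes that fell and 14 to 21 that rose. IER2 reversed to 0.00394, 0.00385 and 0.00394 in the FPKM fits at pseudocounts of 1 and 0.1 and without a filter. Across fits that left out 1 library, MYC ranged from -0.279 without I/R+Rk2 replicate 2 to 0.249 without I/R+Rk2 replicate 3, and reversed to 0.0886 without I/R+DMSO replicate 3. The cause was not tested except where a single library was left out.

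With replicate number as a block, JUN had a log2 fold change of 0.24 and an adjusted p of 0.0506 in edgeR, and 2 members rose, 1 fell, 21 other pathway genes rose and 9 fell. After centring on group means, same-numbered libraries correlated at 0.0160, -0.00950, 0.0382 and 0.0845 over genes. Differently numbered libraries of the 2 groups correlated at -0.148 to 0.0769. These values cannot tell whether same-numbered libraries shared a culture or batch. FOS, the member with the fewest counts, had 134 to 195 a library, and genes with fewer counts were called. Upper-quartile normalization shifted the median of all genes to -0.03 and library size only to 0.03.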
